A study of Mus musculus with 14 samples.

Results

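RNA was sequenced from mouse BFU-E in culture, the burst-forming progenitors that start the red cell line, and 10 genes used as marks of erythroblastic island macrophages were followed in every library: Adgre1, Csf1r, Mpeg1, Ctss, Lyz2, Cd68, Hpgd, Vcam1, C1qa and C1qb. They were picked by gene name, all 10 were listed in both sets of libraries, and they stand among 23647 symbols (OB set) and 54632 symbols (PD set). The OB set lists Adgre1 under its older symbol Emr1. There were 4 groups of 3 libraries: cells given compound OB at 100 µM, their DMSO solvent controls (OB DMSO), cells given compound PD at a dose of 3 nM, and the DMSO controls of those (PD DMSO). All cells came from C57BL/6 fetal liver and were grown in StemSpan SFEM II medium, so DMSO or a compound is the labelled difference within a set. The sources used here do not give time in culture, embryo age or pooling of animals, and nothing says that replicates were separate cultures, so p-values measure only the spread between these libraries, which may be technical.

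An erythroblastic island is a macrophage ringed by developing red cell precursors, and it is the site where red cells mature in fetal liver and bone marrow. The macrophage holds the precursors through adhesion molecules such as Vcam1, which binds the integrin built from Itga4 and Itgb1 on the erythroid cell, and it engulfs the nuclei that the precursors expel. Several of the listed genes are not particular to macrophages: Lyz2 is also made by granulocytes, Cd68 and Ctss by monocytes and dendritic cells, and Vcam1 is also made by stromal and activated endothelial cells.

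Neither set carried the full pattern that the name of the list calls for. In the PD set 7 of the 10 genes averaged 1 FPKM or more, Mpeg1, Csf1r and Adgre1 among them, and in the OB set 3 did. C1qa and C1qb, which code for chains of the complement protein C1q made mainly by macrophages, and Vcam1 were at or near 0 in both sets, while Lyz2 led the list in every group. Of 20 further macrophage markers, 18 stayed under 1 FPKM (a level adjusted for gene length and library size) in all 6 OB libraries and 11 did so in all 6 PD libraries. In the PD set these were C1qc, Cd163, Cd5l, Clec4f, Marco, Mertk, Mrc1, Siglec1, Spic, Timd4 and Vsig4, among them the island macrophage marks Siglec1 and Cd163. Their highest value was 0.19 FPKM with compound PD and 0.29 FPKM in PD DMSO, and 0.14 FPKM with compound OB and 0.15 FPKM in OB DMSO. Clec4f, Spic and Vsig4 were listed at 0 in all 12 libraries. Of the 20 further markers, 8 averaged 1 FPKM or more in the PD set and 2 in the OB set, led in both by Fcer1g and Tyrobp. The genes of the list are therefore treated as 10 named genes led by Lyz2 and not as a measure of macrophages.

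Erythroid genes were plentiful in all groups, but in the PD set they were not the highest. The 8 erythroid markers summed to 1509 to 2241 FPKM with compound PD and 1974 to 4341 FPKM in PD DMSO. The 10 granulocyte markers summed to 29091 to 36560 FPKM with compound PD and 11368 to 17194 FPKM in PD DMSO. Gata1, the main erythroid transcription factor, measured 149.6 to 175 FPKM with compound OB and 132 to 185 FPKM in OB DMSO, and 132 to 135 FPKM with compound PD and 134 to 142 FPKM in PD DMSO. Some libraries stood apart. PD DMSO replicate 1 held the lowest of the 6 values in 50.3% of 11901 tested genes, and its Alas2, the first enzyme of haem synthesis in red cells, was 1126 FPKM against 382 and 376 FPKM in the other PD DMSO libraries. In the OB set replicate 1 of both groups was high in several myeloid and megakaryocyte genes (values in the order of replicates 1, 2 and 3). Spi1, the myeloid regulator PU.1, measured 9.31, 1.82 and 1.84 FPKM with compound OB and 13.2, 1.25 and 1.82 FPKM in OB DMSO. The megakaryocyte gene Pf4 measured 708, 441 and 476 FPKM with compound OB and 1015, 374 and 437 FPKM in OB DMSO. The myeloid regulator Cebpb did not follow with compound OB, at 24.4, 27.7 and 22.6 FPKM.

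The windows around the start of transcription are shown for the 4 genes with the highest fold changes under compound PD, and for C1qb, which stayed near 0. Each runs from 250 bases before the start to 50 after it, 5′ to 3′ on the strand of the gene, from RefSeq on GRCm38.p6, the assembly that mm10 names. Capitals mark AGGAAG, a core of sites for PU.1, or its reverse complement CTTCCT.
Lyz2, chr10:117282223-117282522, minus strand: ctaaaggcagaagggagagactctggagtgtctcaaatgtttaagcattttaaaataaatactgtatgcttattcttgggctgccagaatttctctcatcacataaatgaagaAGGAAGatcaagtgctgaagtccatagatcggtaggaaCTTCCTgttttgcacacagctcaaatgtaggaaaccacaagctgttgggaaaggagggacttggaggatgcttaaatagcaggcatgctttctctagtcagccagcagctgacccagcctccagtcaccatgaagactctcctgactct
Ctss, chr3:95526536-95526835, plus strand: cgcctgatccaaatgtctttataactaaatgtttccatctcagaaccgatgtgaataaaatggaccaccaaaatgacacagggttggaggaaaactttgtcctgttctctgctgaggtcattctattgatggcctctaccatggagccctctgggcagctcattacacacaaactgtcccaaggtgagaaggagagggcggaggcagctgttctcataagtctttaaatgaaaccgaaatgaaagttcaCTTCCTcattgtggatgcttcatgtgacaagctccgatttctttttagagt
Mpeg1, chr19:12460520-12460819, plus strand: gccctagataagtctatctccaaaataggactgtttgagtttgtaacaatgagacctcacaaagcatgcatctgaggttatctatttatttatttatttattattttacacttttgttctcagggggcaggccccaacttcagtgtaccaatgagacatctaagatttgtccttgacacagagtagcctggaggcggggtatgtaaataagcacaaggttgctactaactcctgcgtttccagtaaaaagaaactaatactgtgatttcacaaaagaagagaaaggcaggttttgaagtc
Hpgd, chr8:56294302-56294601, plus strand: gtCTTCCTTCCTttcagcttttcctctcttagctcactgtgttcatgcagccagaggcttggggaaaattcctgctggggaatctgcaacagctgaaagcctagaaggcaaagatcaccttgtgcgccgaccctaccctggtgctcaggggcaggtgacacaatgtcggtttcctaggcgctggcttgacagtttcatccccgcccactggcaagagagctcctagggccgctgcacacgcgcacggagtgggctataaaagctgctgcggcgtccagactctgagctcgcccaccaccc
C1qb, chr4:136886151-136886450, minus strand: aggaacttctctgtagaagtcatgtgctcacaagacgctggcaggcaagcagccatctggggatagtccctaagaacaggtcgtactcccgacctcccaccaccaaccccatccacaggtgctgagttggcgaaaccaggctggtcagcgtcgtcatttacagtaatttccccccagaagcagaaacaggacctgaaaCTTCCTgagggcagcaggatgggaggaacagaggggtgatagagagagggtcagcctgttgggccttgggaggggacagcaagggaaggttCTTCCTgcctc

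The Lyz2 window held AGGAAG on both strands, with first letters 137 and 99 bases before the start. Ctss held it once on the reverse strand, 1 base before the start, and Hpgd held overlapping copies on the reverse strand 248 and 244 bases before it. C1qb held it 52 bases before and 39 bases after the start, so the letters were present in a gene that was barely detected, while the Mpeg1 window had none. AGGAAG in either strand occurred in 4 of the 6 windows on file for the list (Cd68 is the sixth gene) and in 35.4% of 32851 windows of the same length. TGCTGA, part of the site of MAF factors, occurred in 3 of 6 (Lyz2, Ctss and C1qb) and in 19.5% of all windows. TCACGTG (MITF and TFE factors) occurred in 0 of 6 against 3.77% of all, and TGACGTCA (CREB) in 0 of 6 against 1.79%. These matches describe letters only.

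Lyz2 and Mpeg1 headed the order of levels in both PD groups, and the order of the receptors and the other lysosomal genes varied between groups. Lyz2, lysozyme M, which digests bacterial cell walls, measured 1656, 2022 and 2234 FPKM in replicates 1, 2 and 3 of compound PD, against 594, 1053 and 1048 FPKM in PD DMSO. All 3 compound PD libraries lay above all 3 DMSO libraries, and Lyz2 alone made 96.0% to 96.6% of the summed FPKM of the list with compound PD and 95.4% to 95.9% in PD DMSO. Its neighbour Lyz1 matches it at 99 of the last 100 bases of their windows, of which 50 lie after the start. The transcripts were not compared, so whether reads were split between the 2 genes is unknown. Lyz1 measured 0.61 ± 0.449 FPKM with compound PD and 0.62 ± 0.393 FPKM in PD DMSO (SD, n = 3 each).

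Mpeg1, a pore-forming protein that phagocytes use against engulfed bacteria, measured 23.7, 33.7 and 35.5 FPKM with compound PD and 9.29, 16.9 and 17.3 FPKM in PD DMSO. Ctss, the protease cathepsin S that trims the invariant chain in antigen presentation, measured 7.82, 10.8 and 12.95 FPKM with compound PD and 2.58, 3.04 and 2.82 FPKM in PD DMSO. Neither gene had overlapping groups, and the DMSO values of Ctss lay close together. Cd68, a glycoprotein of late endosomes and lysosomes, measured 8.72, 10.6 and 8.5 FPKM with compound PD and 5.04, 8.82 and 9.55 FPKM in PD DMSO, and its groups overlapped.

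The cell surface receptors were present at a few FPKM. Csf1r, the receptor for CSF1 on which most macrophages depend, measured 9.11, 10.7 and 9.19 FPKM with compound PD and 4.90, 6.43 and 7.74 FPKM in PD DMSO, with no overlap. Adgre1, which codes for the F4/80 antigen of mouse macrophages and is also found on eosinophils, measured 9.78, 9.20 and 5.93 FPKM with compound PD and 2.04, 6.75 and 4.28 FPKM in PD DMSO. The groups of Adgre1 overlapped, since PD DMSO replicate 2 lay above compound PD replicate 3. Hpgd, the dehydrogenase that begins the breakdown of prostaglandins, measured 8.80, 8.65 and 5.13 FPKM with compound PD and 4.19, 1.45 and 1.07 FPKM in PD DMSO, with no overlap.

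Adhesion and complement genes ended the order. Vcam1 measured 1.01, 0.26 and 0.28 FPKM with compound PD and 0.36, 0.78 and 0.65 FPKM in PD DMSO. C1qb measured 0.16, 0 and 0 FPKM with compound PD and 0, 0.79 and 0.98 FPKM in PD DMSO. C1qa was listed at 0 in all 3 compound PD libraries and measured 0, 0.17 and 0 FPKM in PD DMSO. None of these 3 genes separated the groups, and C1qb was seen in 1 compound PD library and 2 DMSO libraries. With compound PD, the ranges of Ctss, Csf1r, Cd68 and Adgre1 each overlapped with that of the next gene in order, down to Hpgd. Lyz2 stood apart from Mpeg1, Mpeg1 from Ctss, Hpgd from Vcam1, and Vcam1 from C1qb. In PD DMSO, Lyz2 stood apart from Mpeg1 and Hpgd from Vcam1, and every other neighbouring pair overlapped.

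**Figure D1:**
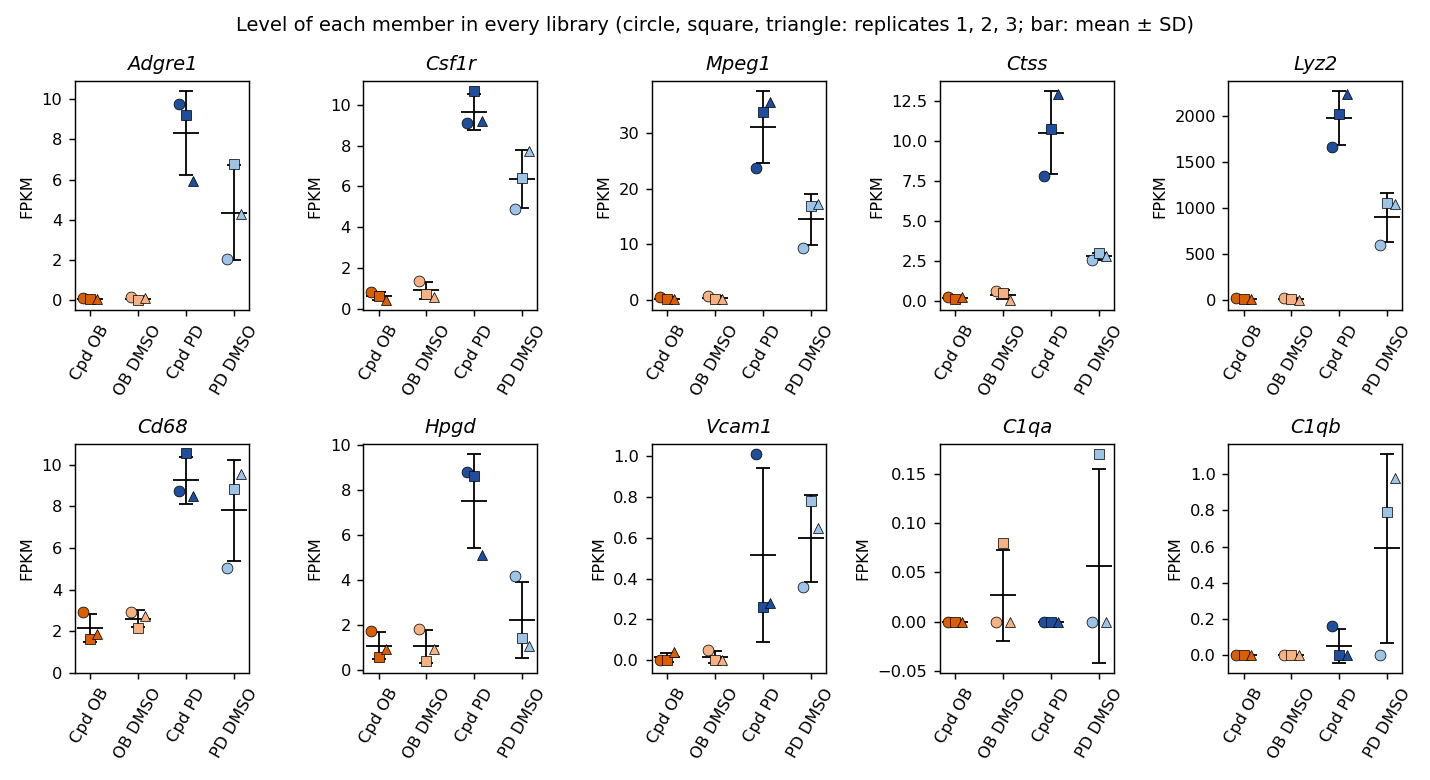
FPKM of each gene (vertical axes, each on its own linear scale) in every library of the 4 groups, with circles, squares and triangles for replicates 1, 2 and 3 and bars for mean ± SD; Cpd stands for compound. In the PD set Lyz2 runs from 1656 to 2234 FPKM with compound PD and from 594 to 1053 FPKM in PD DMSO, while in the OB set no gene separates its groups.

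The same genes were low in the OB set. Lyz2 measured 19.8, 8.15 and 9.98 FPKM in replicates 1, 2 and 3 of compound OB, against 28.2, 9.90 and 7.83 FPKM in OB DMSO. Replicate 1 was the highest library in both groups, and the groups overlapped. Its share of the summed FPKM of the list was 70.7% to 75.4% with compound OB and 62.5% to 78.3% in OB DMSO. Lyz1 measured 2.0 ± 1.37 FPKM with compound OB and 2.35 ± 1.99 FPKM in OB DMSO (SD, n = 3 each).

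Cd68 measured 2.92, 1.65 and 1.88 FPKM with compound OB and 2.94, 2.15 and 2.72 FPKM in OB DMSO. Hpgd measured 1.76, 0.60 and 0.92 FPKM with compound OB and 1.83, 0.40 and 0.95 FPKM in OB DMSO. Both genes overlapped between groups, and replicate 1 again held the highest value of each group. Csf1r measured 0.84, 0.65 and 0.44 FPKM with compound OB and 1.37, 0.75 and 0.59 FPKM in OB DMSO. Mpeg1 measured 0.56, 0.22 and 0.24 FPKM with compound OB and 0.85, 0.27 and 0.23 FPKM in OB DMSO. For these receptor and pore genes too, replicate 1 was highest in either group.

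Ctss measured 0.27, 0.17 and 0.29 FPKM with compound OB and 0.63, 0.52 and 0.10 FPKM in OB DMSO. Adgre1, listed as Emr1, ranged from 0.06 to 0.11 FPKM with compound OB and from 0.02 to 0.14 FPKM in OB DMSO. Vcam1 reached 0.04 FPKM with compound OB and 0.05 FPKM in OB DMSO, and C1qa was listed at 0 with compound OB and reached 0.08 FPKM in OB DMSO. C1qb was listed at 0 in all 6 OB libraries. With compound OB the neighbours from Cd68 down to Ctss overlapped, and Lyz2 stood apart from Cd68, Ctss from Adgre1 and Adgre1 from Vcam1. In OB DMSO, Lyz2 stood apart from Cd68 and Cd68 from Hpgd.

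The sets differed in level far more than the groups within them, with mean Lyz2 of 12.7 FPKM with compound OB and 15.3 FPKM in OB DMSO, and of 1971 FPKM with compound PD and 898 FPKM in PD DMSO. The gap in level was there between the DMSO groups, which were given no compound. The sets were tabulated with different annotations, so no test was made across their levels, and set and processing cannot be told apart. A difference between the effects of the compounds cannot be told apart from set or processing either. In bulk RNA, fewer cells of a type and less RNA per cell cannot be told apart either.

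The first comparison asked what compound PD did relative to its own DMSO. Of the 10 genes, 7 averaged 1 FPKM or more across the set, in either group on its own too, and entered the fit, and 0 of the 7 passed limma's test at an adjusted p of 0.05. The background was as low: 3 of 11901 genes passed (0.0252%), 1 higher (0.0084%) and 2 lower (0.0168%), although 1268 had an unadjusted p under 0.05, among them 6 of the 7. The 7 all had a log2 fold change above 0, with a median of 1.07, against 0.06 over all genes tested (59.1% above 0). For 5 of the 7 (Lyz2, Mpeg1, Ctss, Csf1r and Hpgd) all 3 compound libraries lay above all 3 DMSO libraries, as did 13.1% of all genes tested, and for 0 of the 7 all lay below (3.71% of all genes).

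Ctss differed most, at 10.5 ± 2.57 FPKM with compound PD and 2.81 ± 0.230 FPKM in PD DMSO (SD, n = 3; log2 fold change 1.57, SE 0.23, limma adjusted p = 0.0911), and it ranked 9 of 11901 by p. Hpgd averaged 7.53 ± 2.08 FPKM with compound PD and 2.24 ± 1.70 FPKM in PD DMSO (log2 1.49, SE 0.37, adjusted p = 0.191). Lyz2 averaged 1971 ± 293 FPKM with compound PD and 898 ± 264 FPKM in PD DMSO (log2 1.17, SE 0.23, adjusted p = 0.139). Mpeg1 averaged 31.0 ± 6.37 FPKM with compound PD and 14.5 ± 4.53 FPKM in PD DMSO (log2 1.07, SE 0.26, adjusted p = 0.188). The surface receptors differed less. Adgre1 averaged 8.30 ± 2.08 FPKM with compound PD and 4.36 ± 2.36 FPKM in PD DMSO (log2 0.87, adjusted p = 0.413). For Csf1r the means were 9.65 ± 0.873 FPKM with compound PD and 6.36 ± 1.42 FPKM in PD DMSO (log2 0.55, adjusted p = 0.394), and for Cd68 they were 9.26 ± 1.13 FPKM with compound PD and 7.80 ± 2.42 FPKM in PD DMSO (log2 0.26, adjusted p = 0.847).

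**Figure D2:**
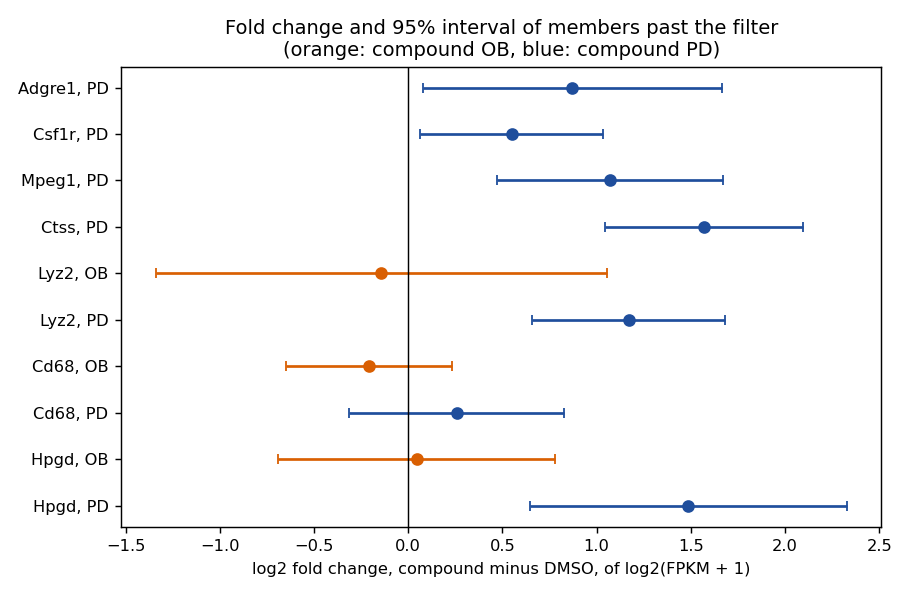
Log2 fold change, compound minus DMSO, on the log2(FPKM + 1) scale (horizontal axis), with 95% intervals from limma, for the genes that passed the filter in the PD set (blue) and the OB set (orange). The interval of Ctss runs from 1.04 to 2.10 and that of Cd68 from −0.31 to 0.83 in the PD set, unadjusted for the number of genes tested.

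These values rest in part on PD DMSO replicate 1, which held the lowest value of the 6 libraries for 6 of the 7 genes, Hpgd being the exception. Without it 165 of 11955 genes passed, and 3 of the 7 were higher with compound PD: Hpgd (log2 1.89, adjusted p = 0.0310), Ctss (log2 1.53, adjusted p = 0.0348) and Lyz2 (log2 0.90, adjusted p = 0.0295). Without replicate 1 of both groups, an alternative added after the data were seen, 252 of 11901 genes passed, with Ctss (log2 1.71, adjusted p = 0.0159), Mpeg1 (log2 0.97, adjusted p = 0.0195) and Lyz2 (log2 1.02, adjusted p = 0.00878) among them. Without any other single library 0 of the 7 passed. Leaving out libraries cannot undo a full separation, so the 5 genes that lay above all DMSO libraries had to do so again. That is no check on them, and no further gene of the 7 joined them. The share of all genes tested was 18.3% without PD DMSO replicate 1 and 22.6% without replicate 1 of both groups.

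The second comparison asked the same of compound OB. Here 3 of the 10 genes entered the fit, Lyz2, Cd68 and Hpgd, and limma called 0 of them, as it called 0 of 10104 genes (0%, with 372 at an unadjusted p under 0.05). Lyz2 averaged 12.7 ± 6.28 FPKM with compound OB and 15.3 ± 11.2 FPKM in OB DMSO (SD, n = 3; log2 −0.14, SE 0.50, adjusted p = 1.00), and its 95% interval, −1.34 to 1.06, spans changes of over 2-fold either way. Cd68 averaged 2.15 ± 0.677 FPKM with compound OB and 2.60 ± 0.408 FPKM in OB DMSO (log2 −0.21, interval −0.65 to 0.23). Hpgd averaged 1.09 ± 0.599 FPKM with compound OB and 1.06 ± 0.721 FPKM in OB DMSO (log2 0.04, interval −0.69 to 0.78). These intervals come from a fit without pairing, so they include the spread that same-numbered libraries share. Taken by replicate number, Cd68 was lower with compound OB each time, while Lyz2 and Hpgd went both ways. The median log2 of the 3 genes was −0.14, against 0.03 over all genes tested. No gene of the 3 had all compound OB libraries above, or below, all OB DMSO libraries, against 5.32% and 3.4% of all genes tested. With the replicate number as a block 7 of 10104 genes passed, without OB DMSO replicate 1 14 of 10056, and without replicate 1 of both groups 1780 of 9998, and 0 of the list did in any of these.

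The genes under the filter were compared on their own, 6 in the OB set (C1qb, at 0 throughout, was left out) and 3 in the PD set. Exact permutation tests of 3 against 3, two-sided on mean log2(FPKM + 1), gave unadjusted p from 0.40 to 1.00 over these 9 tests. The smallest p that the design allows is 0.10, and not every test could reach it. C1qa was above 0 in a single library of each set (0.08 FPKM in OB DMSO and 0.17 FPKM in PD DMSO). Vcam1 was at 0 in most OB libraries. The values of these genes could not give a low p however the groups fell.

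Whether the compounds differed in effect was tested over all 12 libraries and 10769 genes listed in both sets. Limma called 0 genes (0%, with 796 at an unadjusted p under 0.05), and 0 of the 7 genes of the list that entered. Ctss, Mpeg1, Csf1r and Adgre1 entered through their PD levels alone, since they averaged 0.33, 0.395, 0.773 and 0.085 FPKM over the OB set, where a pseudocount of 1 FPKM holds any change near 0. Their difference would restate the values of compound PD, so it is not given. For the 3 genes that passed the filter in both sets, the effect of compound OB minus that of compound PD was −1.44 for Hpgd (log2, SE 0.51, adjusted p = 0.501), −1.31 for Lyz2 (SE 0.59, adjusted p = 0.658) and −0.47 for Cd68 (SE 0.33, adjusted p = 0.903). Hpgd averaged 1.08 FPKM over the OB set and reached 1 FPKM only in replicate 1 of each group, so the pseudocount limits its difference too. Without replicate 1 of all groups 549 of 10739 genes passed, Lyz2 among them (−0.98, adjusted p = 0.0221). Ctss, Mpeg1 and Hpgd passed there too, but lay under 1 FPKM in all 4 OB libraries that remained, so no difference between the compounds is read from them.

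Other genes of the macrophage and of its neighbours were read as lists. None of their members passed limma's test in either set, so the values below carry no call. A gene is said to be separated upward or downward where all 3 compound libraries lay above, or below, all 3 DMSO libraries (13.1% and 3.71% of all genes in the PD set). Of the 20 further macrophage markers, 8 entered the fit in the PD set, 6 with a log2 fold change above 0 (median 0.76). Among the 6, Aif1 and Msr1 entered through the compound group alone, with means of 0.98 and 0.57 FPKM in PD DMSO. They lend that count and the median no support. Their log2 fold changes of 1.09 and 0.82 lie above the median and raise it. The highest of the 8 by FPKM were the signalling adaptors Tyrobp and Fcer1g, which other myeloid cells and mast cells share. Tyrobp measured 302, 320 and 336 FPKM with compound PD and 122, 203 and 153 FPKM in PD DMSO (log2 1.03, adjusted p = 0.122). Fcer1g measured 356, 278 and 318 FPKM with compound PD and 170, 188 and 224 FPKM in PD DMSO (log2 0.71, adjusted p = 0.169). Both separated the groups. Trem2, a lipid-sensing receptor that signals through Tyrobp, measured 3.60, 3.08 and 3.40 FPKM with compound PD and 0.08, 3.95 and 1.23 FPKM in PD DMSO, and did not.

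Genes for what the island macrophage does, such as DNA digestion, iron export and uptake of dying cells, were read as a list of 16. Of these 13 entered in the PD set, 11 with a log2 above 0, with a median of 0.49 and 4 of 13 above all DMSO libraries (Sirpa, Itgav, Palld and Lrp1). Palld and Il18 entered through the compound group alone, with means of 0.80 and 0.98 FPKM in PD DMSO. They lend these counts and the median no support. Their log2 values of 0.73 and 0.54 lie above the median and raise it. Sirpa, the receptor for the signal Cd47 that restrains engulfment, averaged 52.9 ± 7.06 FPKM with compound PD and 28.0 ± 7.78 FPKM in PD DMSO (SD, n = 3; log2 0.93, adjusted p = 0.184). The 3 highest by FPKM overlapped between groups. The haem oxygenase Hmox1 averaged 241 ± 109 FPKM with compound PD and 229 ± 73.3 FPKM in PD DMSO (log2 −0.01), the adhesion protein Maea 66.5 ± 8.16 FPKM with compound PD and 58.3 ± 11.2 FPKM in PD DMSO (log2 0.20), and the iron exporter Slc40a1 48.8 ± 13.2 FPKM with compound PD and 47.8 ± 10.5 FPKM in PD DMSO (log2 0.02; SD, n = 3). Erythroid cells also make these 3. With compound OB 6 of the 16 entered (median 0.04), led by Hmox1, Maea and the lysosomal nuclease Dnase2a at 35.1 ± 3.09 FPKM with compound OB and 34.8 ± 6.15 FPKM in OB DMSO.

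The erythroid partners of island adhesion were plentiful while Vcam1 was near 0. Itga4 measured 34.9, 34.4 and 32.0 FPKM with compound PD and 37.6, 41.2 and 40.7 FPKM in PD DMSO, and Itgb1 105.9, 97.4 and 101.9 FPKM with compound PD and 85.7, 90.6 and 93.1 FPKM in PD DMSO. Icam4, the erythroid ligand of macrophage integrins, measured 34.0, 36.8 and 43.3 FPKM with compound PD and 58.5, 44.3 and 46.0 FPKM in PD DMSO. Of the 9 of 10 genes of this list that entered in the PD set, 2 separated upward and 4 downward (median log2 −0.23), and in the OB set 1 of 9 upward and 0 downward (median 0.05).

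**Figure D3:**
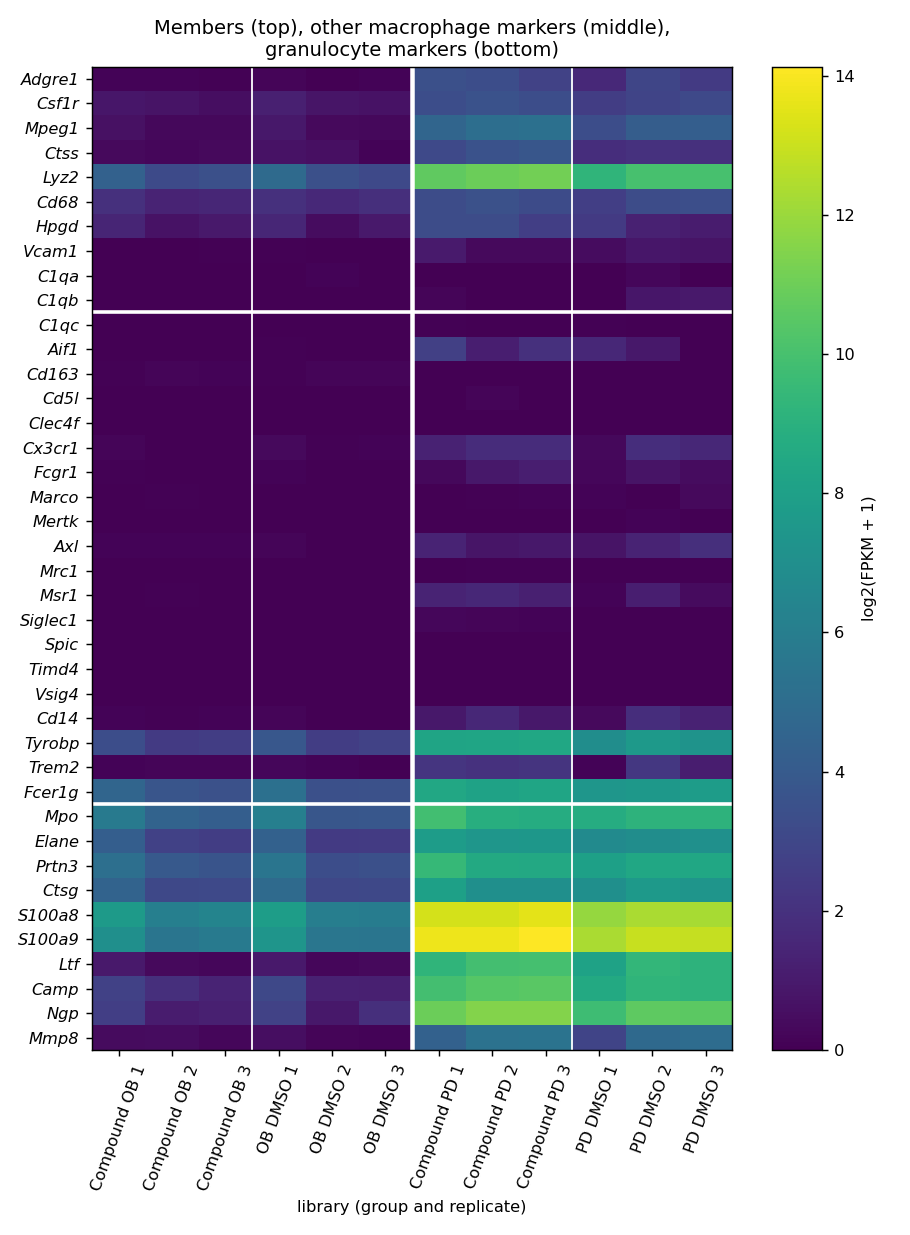
Log2(FPKM + 1) by colour for the 10 genes, 20 further macrophage markers and 10 granulocyte markers (rows) in the 12 libraries (columns). Lyz2, Tyrobp, Fcer1g and the granulocyte genes are brighter in the 6 PD libraries than in the OB libraries. The rows of C1qc, Cd163, Siglec1, Spic, Timd4 and Vsig4 stay dark in all 12. Between them, Aif1, Cx3cr1, Axl and Msr1 reach 5.46, 2.58, 2.72 and 1.99 FPKM in the PD set.

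Granulocyte genes had the same order of groups as Lyz2 in the PD set, and their part in its values was not tested. All 10 granulocyte markers entered, 6 of 10 separated upward (median log2 0.81), and their summed level ran from 29091 to 36560 FPKM with compound PD and from 11368 to 17194 FPKM in PD DMSO. S100a8, a calcium-binding protein of neutrophils, measured 9371, 9692 and 12177 FPKM with compound PD and 3788, 5222 and 4939 FPKM in PD DMSO (log2 1.17, adjusted p = 0.0825), and its partner S100a9 had a log2 of 1.18 (adjusted p = 0.0911). The early granule enzyme Mpo did not separate, at 606 ± 284 FPKM with compound PD and 515 ± 75.1 FPKM in PD DMSO (SD, n = 3; log2 0.15). The granulocyte sum in the OB set was 164 to 483 FPKM with compound OB and 144 to 578 FPKM in OB DMSO, the top of each range being replicate 1, as for Lyz2.

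Transcription regulators of myeloid cells entered for 10 of 12 genes in the PD set, with 5 of 10 separated upward and a median log2 of 0.51. Mitf, among the 5, entered through the compound group alone, with a mean of 0.96 FPKM in PD DMSO, so it lends that count and the median no support. Spi1 measured 68.0, 65.6 and 62.0 FPKM with compound PD and 23.9, 39.5 and 46.1 FPKM in PD DMSO (log2 0.87, adjusted p = 0.224). Cebpe, which drives late granulocyte maturation, averaged 70.3 ± 8.56 FPKM with compound PD and 35.0 ± 8.99 FPKM in PD DMSO (SD, n = 3; log2 1.01, adjusted p = 0.144). Runx1, a regulator of blood cell development, overlapped, at 47.7, 31.5 and 29.4 FPKM with compound PD and 33.0, 35.2 and 27.5 FPKM in PD DMSO (log2 0.15), and Nr1h3, the lipid-sensing receptor LXR alpha, had a log2 of −0.84 (1.13 FPKM with compound PD and 2.67 FPKM in PD DMSO, adjusted p = 0.477). For compound OB 4 of the 12 entered (median 0.05, 0 separated), with Cebpb highest at 24.9 ± 2.60 FPKM with compound OB and 19.0 ± 5.99 FPKM in OB DMSO.

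Monocyte and dendritic cell markers entered for 6 of 11 genes in the PD set (median 0.64, 3 separated upward), 4 with a log2 above 0 and 2 below. Ly6c2, a surface protein of monocytes and of granulocyte precursors, measured 525, 502 and 473 FPKM with compound PD and 168, 318 and 298 FPKM in PD DMSO (log2 0.99, adjusted p = 0.177). Zbtb46, a regulator of dendritic cells that erythroid progenitors also use, measured 6.05, 9.04 and 8.42 FPKM with compound PD and 23.5, 8.85 and 13.6 FPKM in PD DMSO (log2 −0.80, adjusted p = 0.417), and Fn1 had a log2 of −0.12. The 7 megakaryocyte markers had a median of 0.90 with 5 separated upward, and their sum was 4221 to 7508 FPKM with compound PD and 2303 to 4551 FPKM in PD DMSO. Mast cell and basophil markers had a median of 0.10 over members that went both ways (4 of 5 entered, 1 separated upward). Cpa3 had a log2 of 0.75 and Ms4a2 of 0.47, against −0.27 for Mcpt8 and −1.89 for Prss34, whose PD DMSO values were 1.30, 31.8 and 31.5 FPKM. Erythroid markers had a median of −0.40 (8 of 8 entered, 3 separated downward), and PD DMSO replicate 1 stood apart: their sum was 1509, 2241 and 2199.9 FPKM with compound PD and 4341, 2003 and 1974 FPKM in PD DMSO. Slc4a1, the anion exchanger of red cells, measured 317, 580.1 and 527 FPKM with compound PD and 1441, 412 and 419 FPKM in PD DMSO, so that its mean difference rests on that library. Endothelial and stromal markers summed to 18.1 to 32.6 FPKM with compound PD and 13.2 to 18.6 FPKM in PD DMSO, and 9 of 13 stayed under 1 FPKM. Hepatocyte markers summed to at most 0.35 FPKM with compound PD and 0.62 FPKM in PD DMSO, and 5 of 6 lymphoid markers stayed under 1 FPKM, Nkg7 being the exception.

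Under compound OB these lists had medians of 0.06 (monocyte and dendritic, 2 entered), 0.20 (megakaryocyte, 7 entered), −0.26 (mast cell and basophil, 2 entered), 0.13 (erythroid, 8 entered) and −0.21 (further macrophage markers, 2 entered). The granulocyte median was 0.10 with 8 entered, and 1 endothelial gene, Pecam1, entered at −0.17. Hepatocyte and lymphoid markers had none.

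**Figure D4:**
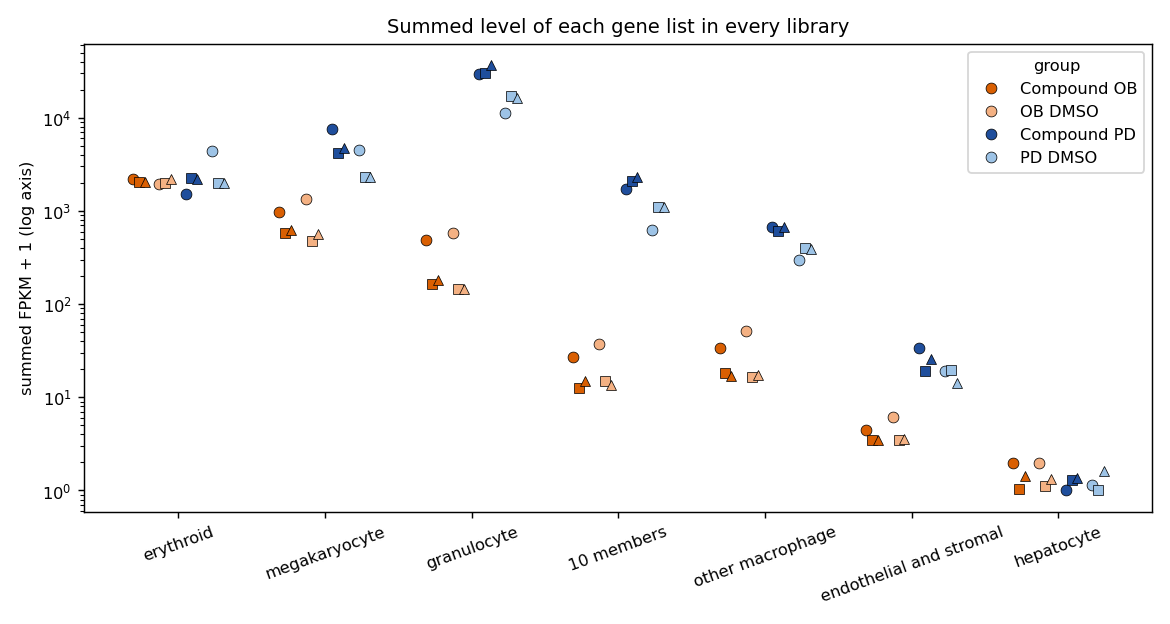
Summed FPKM + 1 of each gene list (log vertical axis) in every library, coloured by group, with circles, squares and triangles for replicates 1, 2 and 3. Erythroid sums lie between 1509 and 4341 FPKM in all groups, while the 10 genes sum to 1725 to 2312 FPKM with compound PD, 622 to 1099 FPKM in PD DMSO, 11.5 to 26.3 FPKM with compound OB and 12.5 to 36.0 FPKM in OB DMSO.

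Among themselves the genes varied together to unequal degrees. Over the 6 PD libraries, which share the compound and DMSO split and the low PD DMSO replicate 1, Lyz2 and Mpeg1 had a Pearson correlation of 0.99 (Spearman 0.94) on the log2 scale and Lyz2 and Ctss of 0.93 (Spearman 1.00). Cd68 and Hpgd had 0.01 (Spearman −0.09), the lowest of the 21 pairs, whose median was 0.79. Across the OB set the 3 pairs of Lyz2, Cd68 and Hpgd had 0.68 to 0.85 over 6 libraries, which share a high replicate 1.

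The genes whose profile over the 6 PD libraries was most like the mean of the 7 genes, out of 8963 with a mean of at least 5 FPKM, were 6430548M08Rik, Myadm, Clec5a, Psap and Flot2, with Pearson correlations of 0.992 to 0.999. Clec5a, a receptor of myeloid cells that signals through Tyrobp, averaged 59.2 FPKM with compound PD and 29.3 FPKM in PD DMSO. Psap, the precursor of lysosomal saposins, averaged 160.2 FPKM with compound PD and 111 FPKM in PD DMSO. For the OB set the 5 most alike of 7916 genes were Nub1, Mpp1, Slc19a2, Cox5a and Pdrg1 (0.991 to 0.997). With 6 libraries and so many candidate genes, these values are a description.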

How the data were processed

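RNA of 12 libraries was analysed. The 2 chromatin samples of the series were not analysed here. The authors deposited FPKM per gene with 2 decimals, and the submitters' processing notes name STAR and mm10. The sources used here give no counting program, annotation, strand or versions, so overlapping and near-identical genes are uncertain. Of the OB set, 380 names split at a hyphen with displaced values were left out, in each set 27 names turned into dates, and in the PD set 93 repeated symbols. In the OB set 896 older symbols were matched through RefSeq synonyms (GRCm38.p6).

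Depth is unknown, since FPKM keep no counts. Ratios of low values were whole within 0.05 in 8.48% (OB) and 9.15% (PD), against 10% by chance.

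Compound and DMSO libraries of a set were compared in limma 3.58.1 (R 4.3.3, statmod 1.5.0; trend, robust) on log2(FPKM + 1), two-sided, keeping genes that averaged 1 FPKM or more, with Benjamini-Hochberg adjustment over all genes tested and a threshold of 0.05. Fold changes on this scale understate those of low genes. The fits were tested on simulated data. Python 3.11.15, pandas 2.3.3, numpy 2.4.6, scipy 1.17.1 and matplotlib 3.10.9 were used.

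Same-numbered replicates deviated together in the OB set (correlations of deviations over genes 0.43 to 0.83), which the labels do not state. The main OB fit did not pair them, so its SE and intervals carry the spread that same-numbered libraries share. With the number as a block, 0 of the 3 genes of the list in the OB fit passed. Limma's adjusted p in that fit was 0.669 for Lyz2, 0.407 for Cd68 and 0.859 for Hpgd.

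The genes and lists were chosen with earlier results of these data known. All 10 are named. Of each other list, genes past the threshold, or else the 3 highest by mean FPKM, could be named. Some others (Lyz1, Gata1, Itga4, Itgb1, Icam4, Sirpa, Itgav, Palld, Lrp1, Il18, Aif1, Msr1, Cx3cr1, Axl, Mitf, Nr1h3, Fn1, Prss34, and Mpo in the PD set) were added after their values were seen. Alternatives were other pseudocounts, filters and scalings, the block, and leaving out libraries.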

Additional observations from a re-analysis of the deposited data

How the results depend on the processing

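Without a test of counts the precision is that of 3 libraries a group. Over all genes, 0 passed for compound OB and 7 with the replicate block, 3 for compound PD, which became 0 with no filter on low values and 41 with the replicate block, and 0 for the difference, which became 3 with a pseudocount of 0.1 and 3 with no filter. The cause was not tested. Leaving out libraries gave 0 to 1780 genes for compound OB, 0 to 252 for compound PD and 0 to 549 for the difference, the highest each time without replicate 1 of all groups. Single libraries gave up to 14 (without OB DMSO replicate 1), 165 (without PD DMSO replicate 1) and 14 (without PD DMSO replicate 1).

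Of the 10 genes, 0 passed for compound OB under every alternative run, with the replicate block too. For compound PD 0 passed, and 2 did with the replicate block (Lyz2, adjusted p = 0.00978, and Ctss, adjusted p = 0.0451), although same-numbered PD libraries did not deviate together (correlations −0.03 to −0.01, each below that with another number). Leaving out libraries gave 0 to 3 of them for compound PD and 0 to 4 for the difference, of which Lyz2 alone still lay above the filter in the OB libraries. The 7 log2 fold changes for compound PD kept their sign in all 104 repeats, 8 of which passed the threshold, with Ctss between 1.42 and 1.84, Lyz2 between 0.90 and 1.31 and Cd68 between 0.01 and 0.46. For the difference 4 of 143 repeats passed and no sign changed. The repeats of Ctss, Mpeg1, Csf1r and Adgre1 restate the values of compound PD, so their signs say nothing on a difference between the compounds. The difference lay between −1.68 and −0.79 for Lyz2 and between −0.63 and −0.21 for Cd68. For compound OB 5 of 40 repeats changed sign, none of them called. Leaving out libraries put Lyz2 between −0.49 and 0.38 and Hpgd between −0.20 and 0.22. Lyz2 turned to 0.38 without OB DMSO replicate 1, 0.10 without compound OB replicate 2 and 0.031 without replicate 1 of both groups, and Hpgd to −0.20 without OB DMSO replicate 2 and −0.029 without replicate 2 of both groups.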
